A study of Rattus norvegicus with 4 samples.

Results

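The aquaporins are membrane channels, and 8 of their genes (Aqp1, Aqp3, Aqp4, Aqp5, Aqp7, Aqp8, Aqp9 and Aqp11) were followed in neonatal rat ovaries cultured with or without glial cell line-derived neurotrophic factor (GDNF). Every probe set annotated with exactly 1 of these symbols was taken, which gave 11 probe sets for the 8 genes, out of 14217 genes that had such a probe set on the array. The genes were chosen by family with the GDNF and control signals of these same 4 arrays already known, so their differences between the groups are given as a description and support nothing. Whole ovaries of 4-day-old rat pups were kept for 2 days in organ culture, in a medium that contained insulin, transferrin, albumin and ascorbic acid in both groups. In 2 samples GDNF was added, and 2 control samples had no added factor. Titles and descriptions name the GDNF samples, while the culture text attached to them is worded as for the controls, and the dose used is not stated in the sources used here. Each sample was RNA from 6 to 10 pooled ovaries on 1 Affymetrix array, so the animal-to-animal spread lies inside a sample, and the labels do not state whether litters or days of culture differed between replicates.

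Each aquaporin subunit forms its own pore, and subunits assemble as tetramers in the membrane. The classical members, such as Aqp1, Aqp4 and Aqp5, pass mainly water, while the aquaglyceroporins Aqp3, Aqp7 and Aqp9 also pass glycerol and other small uncharged solutes. Aqp8 passes water and also ammonia and hydrogen peroxide, and Aqp11 belongs to a divergent branch found in the endoplasmic reticulum. In the rat ovary Aqp7, Aqp8 and Aqp9 are known from granulosa cells of antral follicles, where water must cross the follicle wall as the antrum fills. At the age studied here most follicles are primordial and have no antrum.

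Signals are MAS5 values on a linear scale, and a probe set was called above the filter where its mean log2(signal + 1) over the 4 samples reached the 40th percentile of all probe sets (a signal of about 21.4). The median signal per array was 36.7 to 41.1. The ratio of 3' to 5' beta-actin control signals was 2.62 and 3.61 in GDNF samples 1 and 2, and 3.76 and 3.34 in control samples 1 and 2. The same ratio for GAPDH was 1.11 and 1.44 in GDNF samples 1 and 2, and 1.28 and 1.22 in control samples 1 and 2. Log2 signals of any 2 arrays correlated at 0.971 to 0.986 across probe sets, which are not independent replicates. Markers of the ovary were present in every sample. All 10 granulosa cell markers and all 6 oocyte markers with a probe set lay above the filter, with the gap junction gene Gja1 and the transcription factor gene Wt1 among the first and the zona pellucida genes Zp2 and Zp3 among the second. Whole ovaries were measured, so fewer cells of a type and less RNA per cell cannot be told apart. Of the 11 aquaporin probe sets, 4 passed the filter: 2 of Aqp1 and 1 each of Aqp8 and Aqp9. The 7 probe sets of Aqp3, Aqp4, Aqp5, Aqp7 and Aqp11 lay below it, with signals of 0.4 to 13.3. The filter lay at a mean log2 signal of 4.48. The members nearest to it were Aqp1 (1387651_at) above, at 5.73, and Aqp11 below, at 3.37, so none lay close to it.

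Aqp9, the glycerol and water channel of liver and leukocytes, had the lower level in GDNF ovaries. Its probe set (1368621_at) gave signals of 129.3 and 100.3 in GDNF samples 1 and 2, against 178.6 and 191 in control samples 1 and 2. Both GDNF values lay below both control values. The means were 114.8 ± 20.5 in GDNF and 184.8 ± 8.77 in control ovaries (SD, n = 2 each), a log2 difference of -0.69 (SE 0.17, limma), so that the GDNF level was 61.9% of the control level. By size of the decrease it stood at place 66 of 18625 probe sets, and by unadjusted limma p at place 25. Nothing is read from these places, since the genes were chosen with this contrast known. With each sample left out in turn the difference ran from -0.87 to -0.51. It was nearest to zero without GDNF sample 2 and farthest from zero without GDNF sample 1.

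**Figure D1:**
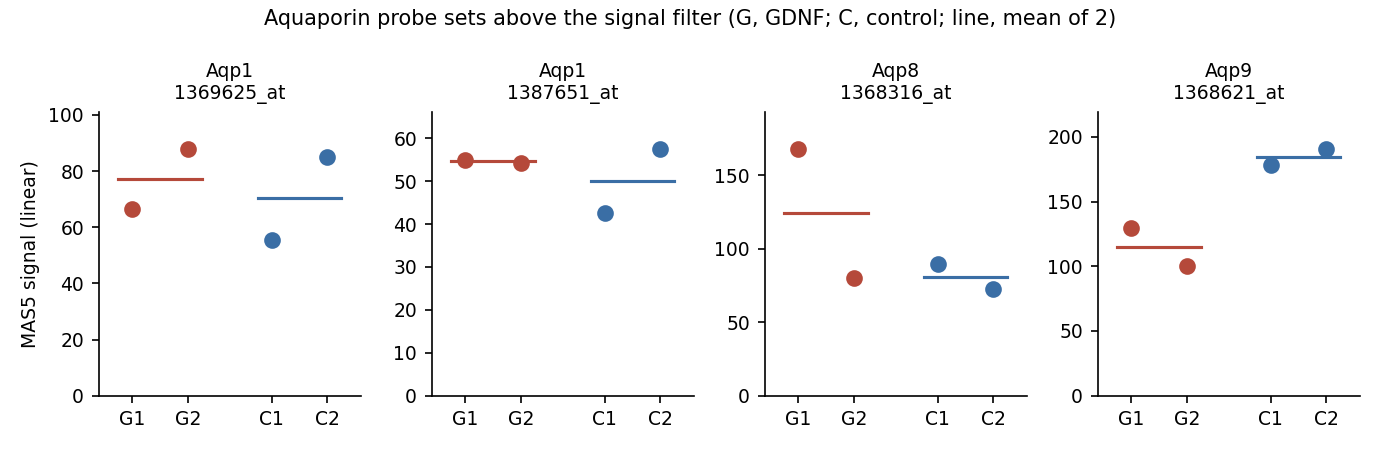
MAS5 signal (linear, axis from 0) of the 4 aquaporin probe sets above the filter, with GDNF samples 1 and 2 (G1, G2) left of control samples 1 and 2 (C1, C2), a point for each sample and a line for the mean of 2. For Aqp9 both GDNF points (129.3 and 100.3) lie under both control points (178.6 and 191), and for Aqp8 GDNF sample 1 (168.2) stands above the other 3.

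Aqp8, a channel of epithelia that also conducts ammonia and hydrogen peroxide, was high in a single GDNF sample. Its probe set (1368316_at) had signals of 168.2 and 80.1 in GDNF samples 1 and 2, against 89.5 and 72.5 in control samples 1 and 2. GDNF sample 2 lay between the controls, so the groups overlapped. The means were 124.2 ± 62.3 in GDNF and 81.0 ± 12.0 in control ovaries (SD, n = 2 each), and the log2 difference was 0.52 (SE 0.33, 95% interval -0.26 to 1.30). Without GDNF sample 1 the difference was -0.0081, and without GDNF sample 2 it was 1.05.

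Aqp1, the water channel of red cells and of capillary endothelium, was measured above the filter by both of its probe sets, and the groups overlapped in both. The first (1369625_at) had 66.6 and 88 in GDNF samples 1 and 2, against 55.6 and 85 in control samples 1 and 2, a log2 difference of 0.15 (SE 0.26, 95% interval -0.45 to 0.76). In this probe set sample 2 was the higher of each group, and the range within the controls (0.60 on the log2 scale) exceeded the difference between groups. The other (1387651_at) had 54.9 and 54.3 in GDNF samples 1 and 2, against 42.5 and 57.6 in control samples 1 and 2, a log2 difference of 0.14 (SE 0.23, 95% interval -0.40 to 0.68). Both differences were small and positive, and both turned negative without control sample 1, to -0.15 and -0.076. The first also turned without GDNF sample 2, to -0.046.

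**Figure D2:**
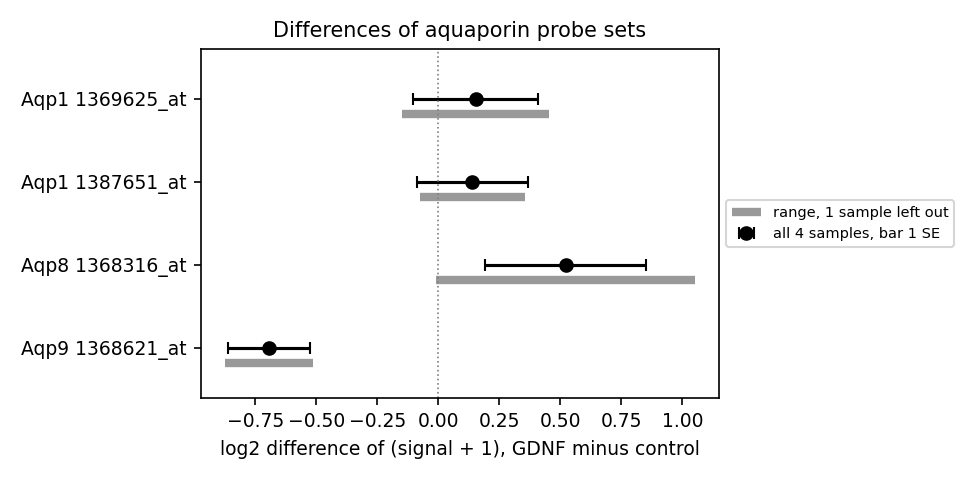
Log2 difference of (signal + 1), GDNF minus control, for the 4 aquaporin probe sets above the filter. Points show all 4 samples with bars of 1 SE, and grey bars the range when 1 sample was left out in turn. For Aqp9 the grey bar (-0.87 to -0.51) stays left of zero, and for Aqp8 and both probe sets of Aqp1 it reaches across zero.

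None of the 4 aquaporin probe sets passed limma's test with Benjamini-Hochberg adjustment over all 18625 probe sets (adjusted p = 0.999 for each), and neither did any other probe set, so 0% were called. At an unadjusted p under 0.05 there was 1 aquaporin probe set, that of Aqp9, in a table where 2.73% of probe sets reached that level, 1.66% lower and 1.06% higher in GDNF. The adjusted p of Aqp9 was 0.111 to 1 over the alternative settings. Groups that did not overlap were common throughout the table: 16.6% of the probe sets above the filter lay lower in both GDNF samples and 13.4% higher. Of the 4 aquaporin probe sets, 1 was lower without overlap (Aqp9) and 0 were higher. Without a filter, 2 of the 11 (18.2%) were lower without overlap, Aqp9 and Aqp11, beside 16.6% of all 31042 probe sets. That share was close to the share over the whole array. A lower level in GDNF without overlap and with at least a 1.5-fold difference was found for 0.644% of the probe sets above the filter, and Aqp9 was among them. Since the genes were chosen with this contrast known, nothing is read from these counts.

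The aquaglyceroporins other than Aqp9 lay below the filter. Aqp7, the channel by which adipocytes release glycerol, had signals of 6.7 and 2.9 in GDNF samples 1 and 2, against 13.3 and 4.5 in control samples 1 and 2. GDNF sample 1 lay between the controls, and the log2 difference was -0.69. With each sample left out it ran from -1.38 to -0.0053, and was nearest to zero without control sample 1. Aqp3, a basolateral channel of epithelia and skin, had 11.7 and 2.8 in GDNF samples 1 and 2, against 8.7 and 0.9 in control samples 1 and 2 (log2 difference 0.69, and -0.48 to 1.87 with a sample left out). In both genes the samples of 1 group differed by more than the group means did.

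Among the water channels below the filter, Aqp4, the main aquaporin of astrocyte end-feet, had 3 probe sets. Probe set 1387397_at had 7.7 and 1.1 in GDNF samples 1 and 2, against 10.6 and 3.8 in control samples 1 and 2 (log2 difference -0.80). A further probe set, 1368981_at, had 3.9 and 0.4 in GDNF samples 1 and 2, against 5.9 and 0.9 in control samples 1 and 2 (-0.47). The last, 1372190_at, ran the other way, with 1.3 and 3.2 in GDNF samples 1 and 2, against 2.2 and 0.6 in control samples 1 and 2 (0.46). The probe sets of this gene thus differed in direction, at signals of at most 10.6. With each sample left out, all 3 changed sign, running from -1.83 to 0.22 for 1387397_at, from -1.40 to 0.46 for 1368981_at and from -0.04 to 0.96 for 1372190_at.

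Aqp5, the apical water channel of salivary and lacrimal glands, had 1.6 and 0.6 in GDNF samples 1 and 2, against 6.3 and 1.1 in control samples 1 and 2. The log2 difference of -0.94 came mostly from control sample 1, and without that sample it was -0.042. Aqp11, the channel of the endoplasmic reticulum, had 8.8 and 6.7 in GDNF samples 1 and 2, against 12.5 and 10.3 in control samples 1 and 2 (log2 difference -0.51). Its groups did not overlap, and the difference stayed between -0.68 and -0.33 with a sample left out. All signals of Aqp11 were below the filter, and with a pseudocount of 16 in place of 1 the difference was -0.21.

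**Figure D3:**
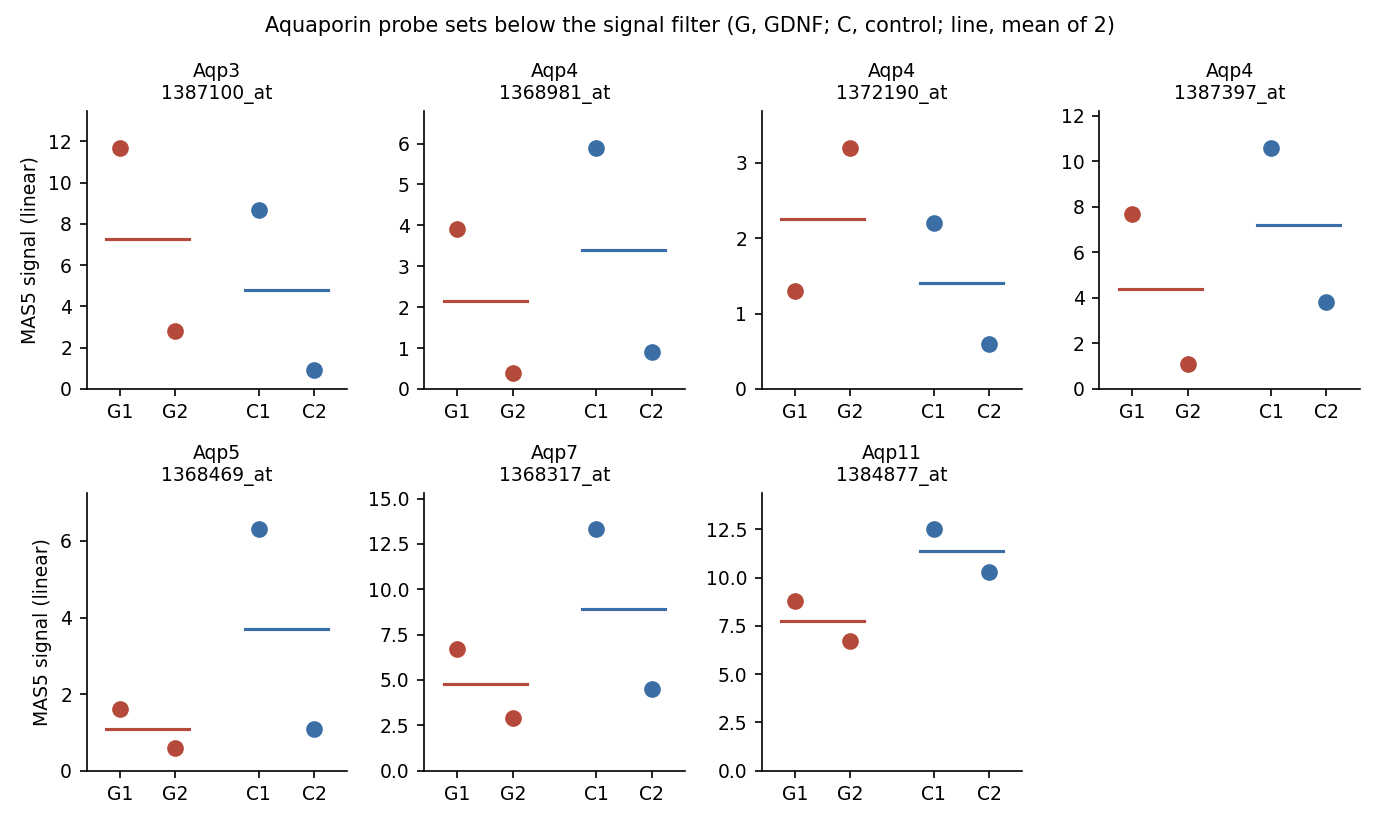
MAS5 signal (linear, axes from 0, scaled for each probe set) of the 7 aquaporin probe sets below the filter, with GDNF samples (G1, G2) left of control samples (C1, C2) and a line for the mean of 2. In 6 of the 7, sample 1 lies above sample 2 in both groups, and only Aqp11 has groups that do not overlap.

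The probe sets below the filter had another feature in common. In 6 of the 7 (85.7%), all but Aqp4 (1372190_at), sample 1 was above sample 2 in the GDNF group and in the control group alike. The same held for 34.2% of the 12417 probe sets below the filter. The order was not a planned comparison and was read from these same signals, and 2 of the 6 belong to Aqp4. Nothing is read from this count. The labels give the replicate numbers but do not say what they mark, and their part in these signals was not tested. The array medians were 41.1 and 36.7 in GDNF samples 1 and 2, and 40 and 38.6 in control samples 1 and 2, so sample 1 had the higher median in both groups.

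Other aquaporin genes with a probe set of their own were Aqp12a, Aqp2, Aqp6 and Mip. Aqp12a, a pancreatic member of the divergent branch, was the only one of them above the filter, with 23.4 and 25.2 in GDNF samples 1 and 2, against 20.8 and 30.1 in control samples 1 and 2 (log2 difference -0.04, SE 0.30). Aqp2, the vasopressin-regulated channel of the kidney collecting duct, had 7.1 and 1.5 in GDNF samples 1 and 2, against 4 and 2.4 in control samples 1 and 2. Aqp6, an intracellular channel of the kidney, had 4.3 and 6.3 in GDNF samples 1 and 2, against 12.1 and 6.4 in control samples 1 and 2 (log2 difference -0.66). Mip, the lens aquaporin, stayed between 0.4 and 2 in all samples (-0.63). Aqp6 and Mip, both below the filter, were lower in GDNF without overlap, as were 16.6% of all probe sets without a filter.

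Aqp9 and Aqp7 carry glycerol into and out of cells, and the genes that release and use glycerol were set beside them. Of the 15 such genes above the filter, 9 were higher and 6 lower by mean in GDNF, with a median log2 difference of 0.01, beside -0.0058 over all 10608 genes tested. Without GDNF sample 1 the median of the 15 was -0.02. Lower without overlap were 2 of the 15, beside 18.1% of all genes, and higher without overlap another 2, beside 13.8%. The lowest were Gpd1, the cytosolic glycerol-3-phosphate dehydrogenase, with 60.1 and 38.6 in GDNF samples 1 and 2, against 72.7 and 62 in control samples 1 and 2 (-0.47, SE 0.26), the gluconeogenic enzyme Fbp1 (-0.46, SE 0.29) and hormone-sensitive lipase, Lipe (-0.44, SE 0.43, overlapping). The highest were Abhd5, the activator of adipose triglyceride lipase (0.21, SE 0.14), the triglyceride synthase Dgat2 (0.20, SE 0.17, overlapping) and the phosphatidate phosphatase Lpin1 (0.16, SE 0.21, overlapping), whose other probe set ran the opposite way (-0.06). Glycerol kinase, Gk, which traps glycerol in the cell, had 79 and 62.1 in GDNF samples 1 and 2, against 64.6 and 61.2 in control samples 1 and 2, with overlapping groups. Gk is named outside the rule, after its values were seen.

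Water follows solutes, and 18 genes of cell volume and osmotic response were measured, all above the filter. By mean, 8 of them were higher and 10 lower in GDNF, with a median log2 difference of -0.04 (-0.0059 without GDNF sample 1, -0.011 without control sample 1 and -0.012 without control sample 2), and 4 (22.2%) did not overlap in each direction, beside 18.1% of all genes lower and 13.8% higher. The highest were Trpv4, a cation channel opened by cell swelling (0.31, SE 0.29), the myo-inositol transporter Slc5a3 (0.29, SE 0.17) and the sodium-potassium-chloride cotransporter Slc12a2 (0.25, SE 0.12). Slc12a2 had 537.2 and 557.4 in GDNF samples 1 and 2, against 424.5 and 495.6 in control samples 1 and 2. The lowest were Lrrc8c, a subunit of the volume-regulated anion channel (-0.23, SE 0.15), the kinase Sgk1 (-0.21, SE 0.28, overlapping) and Oxsr1, a kinase that activates cotransporters (-0.18, SE 0.13).

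The sodium and potassium pump sets the gradients that water follows. Of its 7 genes above the filter, 4 were higher and 3 lower by mean (median 0.01, and -0.05 without GDNF sample 1 or without control sample 1). Fxyd1, a regulator of the pump, had the lowest difference (-0.22, SE 0.14, no overlap), ahead of the beta subunits Atp1b1 (-0.20, SE 0.18) and Atp1b2 (-0.04, SE 0.26). The highest were the regulators Fxyd5 (0.14, SE 0.18), Fxyd6 (0.08, SE 0.13) and Fxyd2 (0.02, SE 0.28), each with overlapping groups. Of the 7 membrane anchors and linkers above the filter, 3 were higher and 4 lower by mean (median -0.05). Ezrin, Ezr, which ties membrane proteins to actin, had 997.7 and 848.5 in GDNF samples 1 and 2, against 1379.7 and 1017.9 in control samples 1 and 2 (-0.36, SE 0.16). The dystrophin-related Utrn (-0.38, SE 0.34) and dystrobrevin, Dtna (-0.31, SE 0.19), overlapped, and the anchor set without GDNF sample 1 had a median of -0.28. The highest were the ezrin relatives Rdx (0.12, SE 0.11) and Msn (0.05, SE 0.14) and dystroglycan, Dag1 (0.05, SE 0.10), each of which had another probe set that ran the opposite way. No gene of these 4 sets passed limma's adjusted threshold, and 0 had an unadjusted p under 0.05, beside 331 of all 10608 genes tested.

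Markers of the cell types in which aquaporins are known were set beside the members. For Aqp9, which leukocytes carry, 10 of 12 leukocyte markers lay above the filter (all but Itgam and S100a8), and 7 of the 10 had a lower mean in GDNF, with a median log2 difference of -0.25. Lower without overlap were 4 of the 10 (40%), beside 18.1% of all genes tested, namely Cd68 (-0.32, SE 0.20), Csf1r (-0.27, SE 0.21), Adgre1 (-0.27, SE 0.18) and C1qa (-0.24, SE 0.18), 4 macrophage genes named after their values were seen. The summed signal of the 12 overlapped, at 1243.9 and 883.9 in GDNF samples 1 and 2, against 1147 and 953.9 in control samples 1 and 2. The brightest, Cd14, a co-receptor for bacterial lipopolysaccharide, had 589.8 and 406.8 in GDNF samples 1 and 2, against 485.3 and 417 in control samples 1 and 2. S100a9, a calcium-binding protein of neutrophils and next in mean signal, had 166.5 and 70.9 in GDNF samples 1 and 2, against 107.6 and 75.6 in control samples 1 and 2. These 2 genes, which had the higher mean in GDNF, made up much of the sum. The 2 markers below the filter, Itgam (0.41) and S100a8 (1.36), overlapped and also had the higher mean in GDNF. Without these 4, a choice made after seeing the data, the sum of the other 8 was 451.3 and 397.2 in GDNF samples 1 and 2. It was 535.1 and 458.0 in control samples 1 and 2, and did not overlap. Since all 4 markers left out ran higher in GDNF, nothing is read from this sum. Of the 10 granulosa cell markers, 6 were higher and 4 lower by mean (median 0.09). Higher without overlap were 4 of the 10 (40%), beside 13.8% of all genes, and lower without overlap 2 (20%), beside 18.1%. At an unadjusted limma p under 0.05 there were 4 of the 10, beside 331 of all 10608 genes tested. These were Amh, the anti-Müllerian hormone (0.58, SE 0.14), the nuclear receptor Nr5a2 (0.58, SE 0.17), Inha, the inhibin alpha subunit (0.46, SE 0.16), and Wt1 (-0.22, SE 0.09). The first 3 are named after their values were seen. The granulosa sum, in which Gja1 was the brightest, was 9189 and 9029.6 in GDNF samples 1 and 2, against 9648 and 8390.3 in control samples 1 and 2. The part of these cells in the Aqp9 difference was not tested.

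For Aqp7, adipocyte markers were mostly low. Of 9 with a probe set, 6 lay below the filter, among them the adipocyte-defining Adipoq, Plin1, Cidec and Lep. The summed signal was 294.1 and 178.6 in GDNF samples 1 and 2, against 350 and 212.8 in control samples 1 and 2. The samples stood in the same order as for Aqp7, with control sample 1 highest and GDNF sample 2 lowest. That order was taken from Aqp7, so its own match was fixed in advance. With Aqp7 counted, 4 of the 7 aquaporin probe sets below the filter had it (Aqp7, Aqp5 and 2 of Aqp4). Of all probe sets below the filter, 6.19% had it, and nothing is read from this count. The brightest markers did not follow that order. Lpl, lipoprotein lipase, had 139.8 and 104.7 in GDNF samples 1 and 2, against 152.2 and 100.7 in control samples 1 and 2, and Lipe had 54.2 and 20.4 in GDNF samples 1 and 2, against 48 and 43.5 in control samples 1 and 2. Fabp4, the fatty acid binding protein of adipocytes and of some endothelium, had 32.2 and 8.8 in GDNF samples 1 and 2, against 83.3 and 22.2 in control samples 1 and 2, which is that order, and is named after its values were seen. The part of fat tissue in the Aqp7 signal was not tested.

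**Figure D4:**
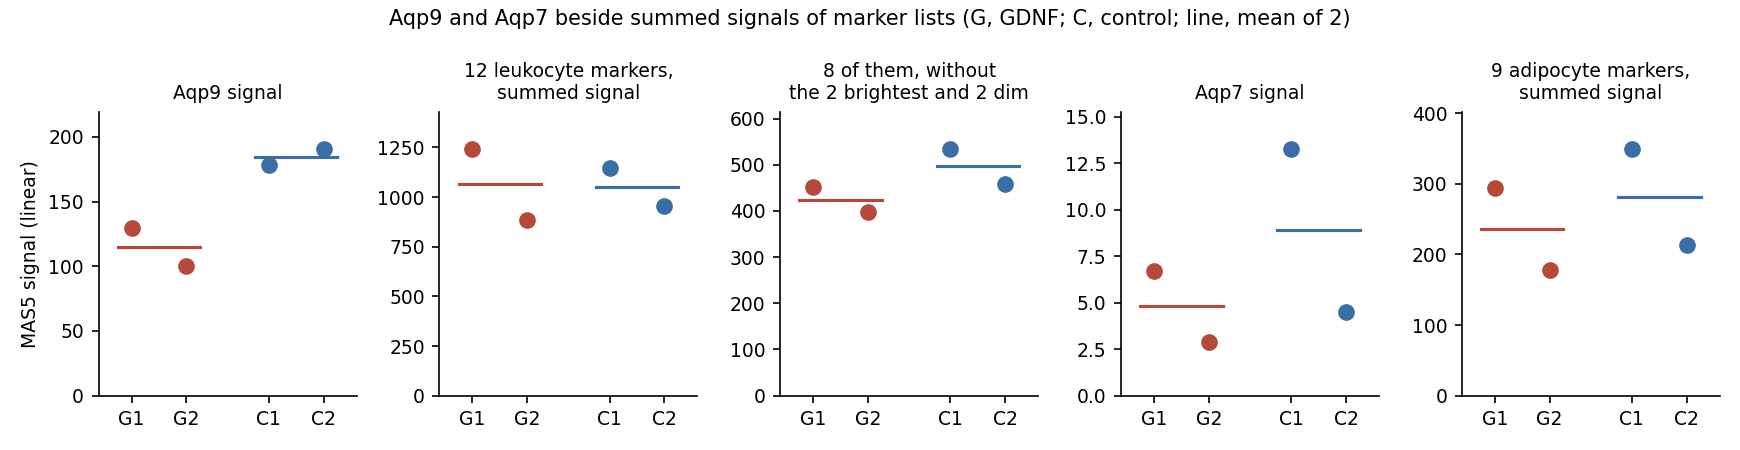
MAS5 signal (linear, axes from 0) of Aqp9 and Aqp7, beside the summed signals of 12 leukocyte markers, of 8 of these without the 2 brightest and the 2 below the filter, and of 9 adipocyte markers, with GDNF samples (G1, G2) left of control samples (C1, C2) and a line for the mean of 2. The sum of 12 leukocyte markers overlaps between groups. The sum of 8 of them does not overlap, and nothing is read from it. This subset was chosen after seeing the data and leaves out Cd14, S100a9, Itgam and S100a8, all higher by mean in GDNF. The adipocyte sum has the sample order of Aqp7, which Aqp5 and 2 probe sets of Aqp4 also have.

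For Aqp1, 6 of 9 endothelial markers lay above the filter, and these 6 all had a lower mean in GDNF (median -0.11). Lower without overlap was 1 of them (16.7%, beside 18.1% of all genes), Kdr, the receptor of vascular endothelial growth factor. Kdr had 817.9 and 777.9 in GDNF samples 1 and 2, against 902.6 and 920.4 in control samples 1 and 2. The 3 markers below the filter, named after their values were seen, all had a higher mean in GDNF. They were Flt1 (log2 difference 0.43), Vwf (0.25) and Plvap (1.10, without overlap). Both Aqp1 probe sets had a higher mean in GDNF. Of 7 red cell markers, 5 lay below the filter, and the beta-globin Hbb had 1787.3 and 1744.5 in GDNF samples 1 and 2, against 1445.3 and 1790.3 in control samples 1 and 2. Alas2, the heme synthesis enzyme of red cells, had 30.7 and 30.5 in GDNF samples 1 and 2, against 31.5 and 26.5 in control samples 1 and 2. Hbb was lowest in control sample 1, as both Aqp1 probe sets were, while Alas2 was highest there. The alpha-globin Hba-a3 was not on the list and is named after its values were seen. It had 981.3 and 582.9 in GDNF samples 1 and 2, against 455.6 and 453.2 in control samples 1 and 2. It was thus higher in GDNF without overlap, as were 13.4% of the probe sets above the filter, and lowest in control sample 2. For the epithelial channels Aqp3 and Aqp5, which were below the filter, 8 of 9 surface epithelium and mesothelium markers had a lower mean in GDNF (median -0.22). Lower without overlap were 3 of the 9 (33.3%), beside 18.1% of all genes. Of these, 1 had an unadjusted limma p under 0.05, the keratin Krt7 (-0.39, SE 0.11, named after its values were seen). That level was reached by 331 of all 10608 genes tested. The brightest, the keratin Krt19, had 3364.9 and 3236.1 in GDNF samples 1 and 2, against 4090.6 and 3632 in control samples 1 and 2. The part of these cells in the aquaporin signals was not tested.

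The genes whose pattern over the 4 samples was most like that of Aqp9 were found by the root mean square difference of log2 signals, each centred on its own mean, among 10608 genes. The nearest was Edn2, the vasoactive peptide endothelin 2, at 0.0574, with signals of 43.6 and 33.9 in GDNF samples 1 and 2, against 65.5 and 62.8 in control samples 1 and 2. It was followed by Cpt1c, a carnitine palmitoyltransferase best known from neurons (0.0681), the inositol trisphosphate kinase Itpka (0.0706), the pseudouridine synthase Pus3 (0.072) and the phospholipid scramblase Plscr3 (0.079). Their log2 differences ran from -0.72 to -0.56, as the choice by likeness to Aqp9 fixes.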

How the data were processed

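RNA of 4 samples was hybridised to Affymetrix arrays for the rat. The values in the deposited table are linear intensities from MAS5, per the submitters' processing notes, with no version given. MAS5 subtracts a mismatch estimate and scales each array to 1 trimmed mean, so low signals are noisy and a change in total RNA cannot be seen. No detection calls were used. Of 31099 probe sets, 57 that serve as array controls were removed. Signals were taken as log2(signal + 1), which understates the change of dim genes, and the 18625 probe sets at or above the 40th percentile of the mean were fitted with limma 3.58.1 in R 4.3.3 (lmFit, eBayes with trend), two-sided, with Benjamini-Hochberg adjustment at 0.05. For probe sets below the filter the plain log2 difference is given. Genes were named from GEO's platform annotation, and each list gene by its probe set with the highest mean. With 2 samples a group, a limma p-value rests on the spread of a probe set's own samples, moderated toward the spread of all probe sets fitted. Both kinds of spread come from these 4 samples and may be technical, and so few arrays limit the precision.

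The 8 genes and all gene lists were chosen with earlier results of these data known. Named genes were all member probe sets, the 5 nearest to Aqp9, up to 3 highest and 3 lowest of each pathway list and up to 2 brightest of each marker list, with exceptions named in the text. Lists were glycerol genes, cell volume genes, pump genes, anchors, other aquaporins and markers of granulosa cells, oocytes, surface epithelium, endothelium, red cells, leukocytes, adipocytes, oviduct and smooth muscle. The fit was also run on simulated data, but the outcome is not given here and lends no support. Alternatives changed the pseudocount (16), the filter (none, or the 60th percentile), the scaling (quantile, or centring on the median), the eBayes trend (none), the design (a block for the replicate number), the probe sets (1 a gene) and the samples (each left out in turn). A planned comparison of the proteins was not made here.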

Additional observations from a re-analysis of the deposited data

How the results depend on the processing

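Aqp8, Aqp9 and Aqp1 (1369625_at) were tested in all 12 alternative settings and Aqp1 (1387651_at) in 10, while the 7 probe sets below the filter were tested in 1, the fit without a filter. In these tests none passed the adjusted threshold, and in the settings that kept all samples no difference that was computed changed sign. Aqp9 ran from -0.69 to -0.63 in the 8 that kept all samples and from -0.87 to -0.51 with 1 left out. With 1 sample left out, Aqp8 ran from -0.0081 to 1.05, Aqp1 (1369625_at) from -0.15 to 0.45 and Aqp1 (1387651_at) from -0.076 to 0.35, so their directions rest on single samples. Probe sets called over the whole table numbered 8 with the replicate number as a block, none of them an aquaporin (limma adjusted p of Aqp9 0.111, of Aqp8 0.488), against 0 without it. With the block, Aqp8 joined Aqp9 at an unadjusted p under 0.05 (0.0149 by limma), as it did without GDNF sample 2. The deviations of GDNF sample 1 and control sample 1 from their group means correlated at 0.323. Across probe sets, same-numbered samples of the 2 groups correlated at 0.983 and 0.986, the other pairs across groups at 0.979 and 0.976, the GDNF samples at 0.971 and the control samples at 0.984. With 2 numbers and no label on what they mark, the samples were not taken as pairs. Probe sets at an unadjusted p under 0.05 numbered 508 with all samples, 1355 with the block, 1093 without a filter, and 142 to 1927 with a sample left out. The cause of these changes was not tested.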

Other observations

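Lists not described beside the aquaporins gave these values. All 6 smooth muscle markers had a lower mean in GDNF, 2 of them (33.3%) without overlap, beside 18.1% of all genes (median log2 difference -0.23). The brightest, the myosin light chain Myl9, overlapped, with 441.7 and 686.4 in GDNF samples 1 and 2, against 529.8 and 640.2 in control samples 1 and 2. Tagln, an actin-binding protein and next in mean signal, had 62.8 and 102.1 in GDNF samples 1 and 2, against 112.5 and 144.9 in control samples 1 and 2. All 6 oocyte markers had a higher mean in GDNF (median 0.47), 4 of them (66.7%) without overlap, beside 13.8% of all genes. At an unadjusted limma p under 0.05 there were 3 of the 6 oocyte markers and 1 of the 6 smooth muscle markers. That level was reached by 331 of all 10608 genes tested. Of 3 oviduct markers above the filter, 2 were higher and 1 lower by mean (median 0.01).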
